A study of Mus musculus with 9 samples.

Results

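The genes described here are 34 genes of cholesterol metabolism in the fetal mouse testis: 7 of the mevalonate route, 11 of the sterol branch that leads from squalene to cholesterol, 5 that control the pathway through the SREBP transcription factors, 5 of uptake and lysosomal release, 2 of storage and mobilisation, 2 of efflux and 2 START-domain transfer proteins. They were taken from a list of symbols and matched to the Ensembl identifiers of the deposited count table. All 34 were found among its 38560 genes, and all 34 passed the filter on low counts that left 18048 genes to be tested.

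RNA came from cells of embryonic testes at 12.5 dpc (days post coitum) of the Sf1-eGFP mouse strain, a transgenic line whose green fluorescent reporter is named for Sf1, a transcription factor gene of steroidogenic and supporting gonadal cells. Testes were recognised by their cords and dissociated with trypsin or a substitute, cells binding an antibody to CD31, a marker of endothelial and germ cells, were removed, and 3 populations were collected by fluorescence-activated cell sorting: the Sertoli sort, the Leydig sort and the Interstitial sort. All 3 sorts carry the reporter strain's genotype, age and depletion in common, and the sources used here do not give the fluorescence gates. Each sort has libraries A, B and C, and each of these RNA samples pooled about 10 sorting days with several litters a day. The labels name a mix of A and B, which by elimination is C, so C is given as values and only A and B enter the tests (n = 2 pools per sort).

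Cholesterol is built from acetyl-CoA through mevalonate and squalene, or taken up from lipoproteins. Cells sense the sterol content of the endoplasmic reticulum: when it is low, SCAP escorts SREBP precursors to the Golgi, where they are cleaved into active factors, and when it is high, INSIG proteins hold SCAP back. Cholesterol is the starting material for all steroid hormones, so fetal Leydig cells, which make androgens, need a supply of it. Sertoli cells form the testis cords around the germ cells.

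SREBP factors act through short promoter elements near CCAAT boxes and GC boxes, so the members' promoter windows were searched for these letters. A window runs from 250 bases before to 50 bases after a RefSeq start on GRCm38.p6, and 27 members had one. Fdps, Fdft1, Sqle, Scarb1, Npc1, Abcg1 and Stard4 had none, so their promoters were not searched. The element TCACNCCAC, searched on both strands, was in the windows of 2 of these 27, Hmgcs1 and Stard3, against 1.45% of the tested genes with a window. These stretches are shown because no other member with a window held the element; they lie at chr13:119690194-119690242 and chr11:98358137-98358185, both on the plus strand like their genes, with the element in capitals and its first base at position -137 and -211 from the start.
Hmgcs1: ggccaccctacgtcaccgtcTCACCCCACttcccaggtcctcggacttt
Stard3: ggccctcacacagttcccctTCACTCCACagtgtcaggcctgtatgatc

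The CCAAT box (CCAAT, both strands) was in 23 of the 27 windows and in 14 of the 15 windows of synthesis genes, against 42.5% of the tested genes. The GC box (GGGCGG, both strands) was in 26 of the 27, against 65.3%. The E-box CACGTG was in 7 of the 27 (Hsd17b7, Sc5d, Dhcr7, Scap, Insig1, Lipe and Abca1), against 11.2%. These are matches of letters in one window per start, not binding sites. The CCAAT boxes of 7 synthesis genes are printed below. These are the synthesis genes called between the Interstitial and Sertoli sorts whose windows held the box, so sharing it was a condition of their choice. Acat2, also called, had a window without the box, and the called genes Fdps, Fdft1 and Sqle had no window. Each stretch is read 5′ to 3′ along its gene's strand, with the box in capitals and 20 bases on each side. The box shown is the nearest to the start of those beginning at least 20 bases before it.
Idi1: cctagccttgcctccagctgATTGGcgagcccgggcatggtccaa
Lss: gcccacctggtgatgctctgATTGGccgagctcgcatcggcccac
Cyp51: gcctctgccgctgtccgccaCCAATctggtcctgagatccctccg
Sc5d: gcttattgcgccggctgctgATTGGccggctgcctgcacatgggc
Nsdhl: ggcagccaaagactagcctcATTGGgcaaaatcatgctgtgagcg
Ebp: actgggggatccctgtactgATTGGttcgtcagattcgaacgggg
Dhcr7: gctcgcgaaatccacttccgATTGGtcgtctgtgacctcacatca

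The first 4 of these genes were higher in the Interstitial sort and the last 3 in the Sertoli sort, by the tests given below. On GRCm38 the stretches lie at chr13:8885541-8885585 for Idi1, chr10:76531523-76531567 for Lss, chr5:4104702-4104746 for Cyp51 and chr9:42264300-42264344 for Sc5d. Those of Nsdhl, Ebp and Dhcr7 lie at chrX:72918481-72918525, chrX:8193543-8193587 and chr7:143830145-143830189. The Dhcr7 stretch belongs to a RefSeq start well inside the gene, which is annotated at chr7:143823145-143848410 on the plus strand. The Idi1 and Cyp51 stretches also lie within their annotated genes, chr13:8885501-8892451 and chr5:4081145-4104746, close to the annotated starts. Cyp51, Sc5d and Ebp are on the minus strand. Only in Cyp51 does the box read CCAAT along the gene; in the other 6 it reads as its reverse complement ATTGG.

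Each library held between 33.12 and 39.24 M reads assigned to genes, and levels are given as counts per 1000000 assigned reads (CPM) on one TMM-normalised scale over the 9 libraries. The lowest count of any member in any library was 213 reads, for Ebp, so depth did not limit detection of a member. Marker genes of several cell types were detected in every sort, and the purity of the sorts was not measured. The summed level of 12 Sertoli markers was 4010 to 4250 CPM in the Sertoli sort, 1200 to 1250 in the Leydig sort and 201 to 235 in the Interstitial sort. That of 11 steroidogenic markers was 529 to 582, 383 to 626 and 115 to 128 CPM, and between the Leydig and Sertoli sorts only 1 of them was higher, 2 were lower and 8 were not called. As a list, these markers did not set the Leydig sort apart from the Sertoli sort. The 10 stroma markers summed to 473 to 495, 1740 to 1940 and 1560 to 1670 CPM, and the 10 endothelial markers to 53.7 to 57.6, 264 to 300 and 272 to 313. The Interstitial sort stood apart in 10 erythroid markers (13900 to 14600 CPM, against 162 to 465 in the Sertoli and 164 to 581 in the Leydig sort) and 10 germ cell markers (865 to 975, against 67.5 to 102 and 59.8 to 236). In it, 10 macrophage and leukocyte markers summed to 51.1 to 78.0 CPM (4.88 to 6.48 in the Sertoli and 17.4 to 27.9 in the Leydig sort), and 10 mesonephric and coelomic markers to 267 to 273 (20.3 to 23.7 and 96.1 to 106). No marker was at 0 in all libraries. In bulk samples, fewer cells of a type and less RNA per cell cannot be told apart.

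Summed transcript levels of the pathway's arms differed between the 3 sorts. The 18 synthesis genes together read 688 to 731 CPM in the Sertoli sort, 753 to 784 in the Leydig sort and 803 to 887 in the Interstitial sort. Fdps, Fdft1 and Sqle averaged 62.6, 40.5 and 42.8 CPM in the Sertoli sort and 91.7, 77.2 and 79.6 in the Interstitial sort. Nsdhl, Ebp and Dhcr7 were higher in the Sertoli sort. The median Interstitial minus Sertoli log2 difference of the 18 synthesis genes was 0.02. The 11 genes of uptake, storage, efflux and transfer ran the other way in their sum, at 954 to 985, 769 to 795 and 593 to 600 CPM. The abundant Soat1, Abca1, Npc2 and Scarb1 followed that order, while Vldlr, Abcg1, Stard4 and Npc1 had their highest mean in the Interstitial sort. The 2 transfer proteins summed to 51.7 to 54.4, 55.4 to 57.0 and 52.1 to 56.7 CPM, the Interstitial range overlapping both others. Of these 2, Stard3 followed the order of the whole sum and Stard4 did not. The libraries of the 3 sorts did not overlap in the sum of the 18 synthesis genes or in that of the 11 other genes. These sums are descriptions, weighted towards the abundant genes, and carry no test.

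**Figure D1:**
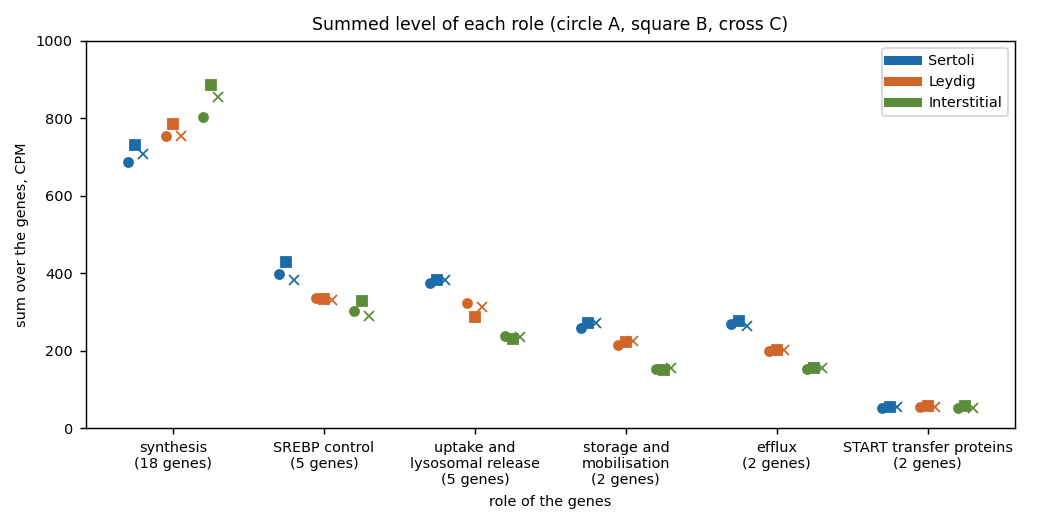
Summed level in CPM (vertical axis, from 0) of the genes of each role in every library, coloured by sort, with A as circles, B as squares and C as crosses. Synthesis was lowest in the Sertoli sort (688 to 731 CPM) and highest in the Interstitial sort (803 to 887 CPM), whereas uptake, storage and efflux were highest in the Sertoli sort.

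The greatest contrast was between the Interstitial and Sertoli sorts. Of the 34 members, 13 were higher in the Interstitial sort (edgeR quasi-likelihood test, Benjamini-Hochberg adjusted p under 0.05), as were 32.7% of all genes tested. A further 12 were higher in the Sertoli sort, as were 29.1% of all genes tested, and 9 were not called. The members' shares, 38.2% and 35.3%, were close to these backgrounds, so the count of calls does not set the list apart. Its median log2 difference was -0.01 and that of all genes 0.04. The roles differed in how their calls fell: 8 of the 18 synthesis genes were higher in the Interstitial sort and 3 in the Sertoli sort, while of the 11 genes of uptake, storage, efflux and transfer 3 were higher in the Interstitial and 6 in the Sertoli sort. This split was not tested. Without Sertoli pool A, or without Interstitial pool B, Idi1, Lss and Cyp51 lost their calls and 5 of the 18 synthesis genes were higher in the Interstitial sort, with 3 still higher in the Sertoli sort. The 13 members were then 8 and 9. Without TMM scaling, using library size alone, the share of all calls in this comparison that were higher in the Interstitial sort went from 52.9% to 65.2%, the median of all genes from 0.04 to 0.21 and the members' median to 0.16. No called member changed direction under any alternative in any comparison.

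**Figure D2:**
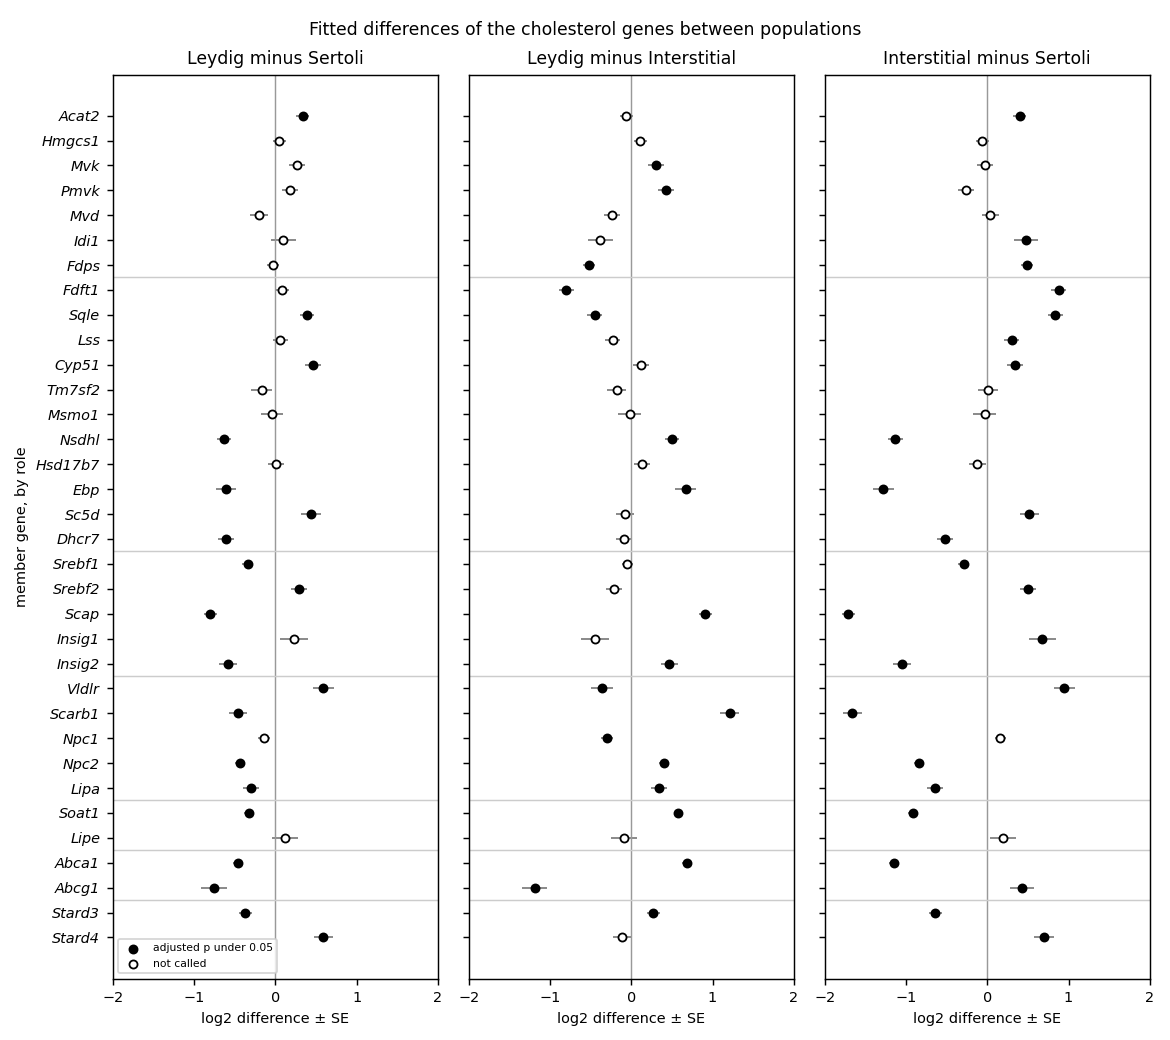
Fitted log2 difference (horizontal axis) of each member in the 3 comparisons, with bars for 1 standard error, filled points for adjusted p under 0.05 and open points for members not called. The Interstitial minus Sertoli panel spans the widest range, from Scap at -1.71 to Vldlr at 0.95.

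Between the Leydig and Sertoli sorts, 7 members were higher in the Leydig sort (20.6%, background 16.9%) and 13 in the Sertoli sort (38.2%, background 20.6%), with 14 not called. The higher share on the Sertoli side came with 7 of the 11 genes of uptake, storage, efflux and transfer and 3 of the 5 SREBP control genes. The 18 synthesis genes gave 4 higher, 3 lower and 11 not called. The median log2 difference of the members was -0.04, against -0.01 for all genes. Scaling by library size alone gave 0.07 and 0.10, and the share of all calls that were higher in the Leydig sort went from 45.1% to 58.8%. Leaving out pool A or pool B of the Sertoli sort lowered the 7 members higher in the Leydig sort to 3 and 4.

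Between the Leydig and Interstitial sorts, 12 members were higher in the Leydig sort (35.3%, background 22%) and 6 in the Interstitial sort (17.6%, background 23.2%), with 16 not called. The median was -0.05, against 0.01 for all genes. Of the genes of uptake, storage, efflux and transfer, 6 of 11 were higher in the Leydig sort and 3 in the Interstitial sort, and of the 18 synthesis genes 4 and 3. The count of 12 was 7 without pool B of the Interstitial sort. The count of 6 was 10 in 4 other fits: library size alone, no filter on low counts, all 9 libraries, or the replicate letter as a block. In these 4 fits, in that order, the count of 12 was 9, 11, 12 and 12. By library size alone, 40.2% of all calls were higher in the Leydig sort, against 48.7% by TMM.

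All 3 comparisons share libraries, so their calls are not independent of each other. The Leydig sort lay between the other sorts in mean level for 21 of the 34 members over the 9 libraries, and for 57.7% of all genes tested. The Interstitial sort was highest for 16 members, the Sertoli sort for 12 and the Leydig sort for 6, against 43.2%, 34.1% and 22.7% of all genes. With A and B alone only Lipe took a different order. The summed Sertoli markers of the Leydig sort also lay between those of the other sorts, and their part in the members' levels was not tested. Under all 16 alternative settings, 10 of the 20 calls between Leydig and Sertoli were kept, 11 of 18 between Leydig and Interstitial and 19 of 25 between Interstitial and Sertoli. Standard errors of the members' log2 differences ran from 0.06 to 0.17.

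**Figure D3:**
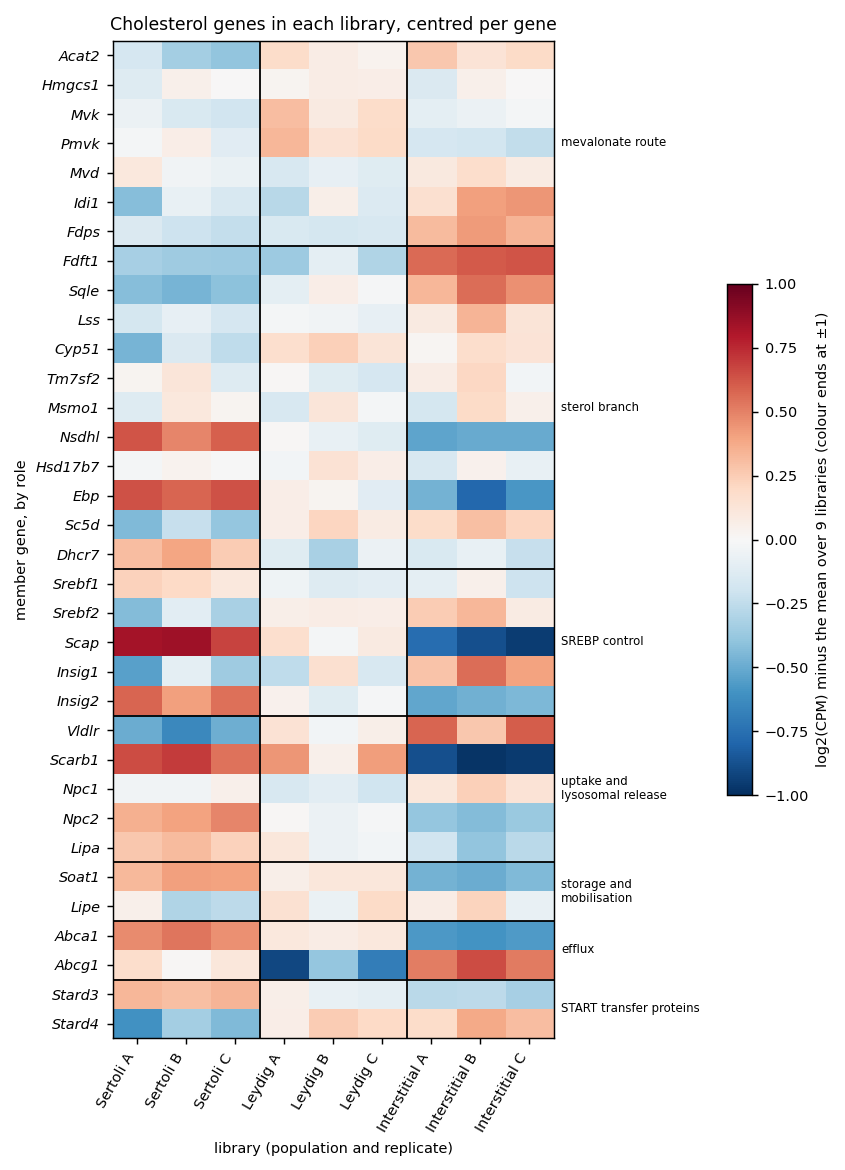
Level of each member in the 9 libraries, as log2 CPM minus that gene's mean over the libraries, with genes ordered by role and colour from blue (lower) to red (higher). Scap and Scarb1 stand out as high in the Sertoli sort and low in the Interstitial sort, and Abcg1 as lowest in the Leydig sort.

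In the mevalonate route, which turns acetyl-CoA into farnesyl diphosphate, the genes higher in the Interstitial than in the Sertoli sort were Acat2, Idi1 and Fdps, and none of the 7 was called higher in the Sertoli sort. Pmvk came nearest to a call on that side, with an Interstitial minus Sertoli log2 difference of -0.26 (95% interval -0.49 to -0.02, edgeR adjusted p = 0.0603), and it was called in 4 of the 16 alternatives (adjusted p = 0.0424 to 0.0495). Fdps, farnesyl diphosphate synthase, read 60 to 63.9 CPM in the Sertoli sort, 62.8 to 63.7 in the Leydig sort and 88.1 to 95.2 in the Interstitial sort. The first 2 sorts overlapped and the Interstitial sort stood above both, 1.41-fold over the Sertoli sort (edgeR adjusted p = 0.000222) and 1.44-fold over the Leydig sort (edgeR adjusted p = 0.000405). Acat2, the cytosolic thiolase of the opening step, was 1.27-fold higher in the Leydig and 1.32-fold higher in the Interstitial sort than in the Sertoli sort (edgeR adjusted p = 0.0123 and 0.00295). Acat3, a closely related gene, read 5.38, 6.21 and 7.81 CPM in the Sertoli, Leydig and Interstitial sorts, and how reads shared by such genes were assigned is not given in the sources used here. Idi1, isopentenyl-diphosphate isomerase, was 1.39-fold higher in the Interstitial than in the Sertoli sort (edgeR adjusted p = 0.0200). That call was lost without Sertoli pool A (edgeR adjusted p = 0.159) or Interstitial pool B (edgeR adjusted p = 0.0782), and the Acat2 call between Leydig and Sertoli without Leydig pool A or Sertoli pool B (edgeR adjusted p = 0.0532 and 0.101). Between Interstitial and Leydig, Idi1 was not called (edgeR adjusted p = 0.0644), but was higher in Interstitial in 7 of the 16 alternatives.

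Hmgcs1, cytosolic HMG-CoA synthase and a classical SREBP target, differed little. Its libraries A, B and C read 167, 189 and 183 CPM in the Sertoli sort. They read 186, 192 and 191 in the Leydig sort and 165, 189 and 183 in the Interstitial sort. The 3 sorts overlapped. No comparison was called (edgeR adjusted p = 0.326 to 0.698), and the 95% intervals of the log2 difference ran from -0.14 to 0.24 for Leydig minus Sertoli, from -0.08 to 0.30 for Leydig minus Interstitial and from -0.25 to 0.13 for Interstitial minus Sertoli. The kinases Mvk and Pmvk were higher in the Leydig than in the Interstitial sort, 1.23-fold and 1.35-fold (edgeR adjusted p = 0.0457 and 0.00917). They were not called against the Sertoli sort, where their Leydig minus Sertoli intervals ran from 0.03 to 0.50 and from -0.06 to 0.41. Of the 16 alternatives, 7 called Mvk higher in Leydig than in Sertoli (adjusted p = 0.00154 to 0.0474), and the fit of all 9 libraries called Pmvk so (0.0137). The Mvk call was lost in 9 of the 16 alternatives, among them the fit without Leydig pool A (adjusted p = 0.246), and the Pmvk call without Leydig pool A (0.0536) or either Interstitial pool (0.0538 and 0.065). Mvd, the decarboxylase, read 11.0 to 13.9 CPM over all libraries and was called in no comparison, though higher in Interstitial than in Leydig in 2 of the 16 alternatives (adjusted p = 0.0119 and 0.0372).

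The sterol branch begins with Fdft1, squalene synthase, which commits farnesyl diphosphate to sterols. Fdft1 read 40.9, 40.1 and 40.0 CPM in libraries A, B and C of the Sertoli sort, 40.0, 48.0 and 41.7 in the Leydig sort and 76.0, 78.4 and 79.3 in the Interstitial sort. The Interstitial libraries stood above all others, and the Sertoli and Leydig libraries overlapped. Its level in the Interstitial sort was 1.84-fold that in the Sertoli sort (log2 difference 0.88 ± 0.09, SE; edgeR adjusted p = 4.2e-05) and 1.74-fold that in the Leydig sort (edgeR adjusted p = 0.000211). Between Leydig and Sertoli the 95% interval was -0.13 to 0.28 in log2. Fdft1 shares 774 exon bases with Ctsb, a lysosomal protease gene on the opposite strand. Ctsb read 220, 140 and 117 CPM in the Sertoli, Leydig and Interstitial sorts, the opposite order to Fdft1.

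Sqle, squalene epoxidase, a rate-controlling step, was lowest in the Sertoli (42.3 to 43.8 CPM), higher in the Leydig (54.4 to 61.2) and highest in the Interstitial sort (73.3 to 86.0), with no overlap. Its differences were called in all 3 comparisons, the widest being 1.79-fold between Interstitial and Sertoli (edgeR adjusted p = 7.55e-05). The Leydig to Sertoli call, 1.31-fold, was lost without either Sertoli pool (edgeR adjusted p = 0.0548 and 0.0745). Lss, lanosterol synthase, was higher in the Interstitial than in the Sertoli sort by 1.23-fold (edgeR adjusted p = 0.0202). Cyp51, the lanosterol demethylase, was 1.38-fold higher in the Leydig and 1.27-fold higher in the Interstitial than in the Sertoli sort (edgeR adjusted p = 0.00804 and 0.0189). Sc5d, a sterol desaturase near the end of the route, was 1.36-fold and 1.44-fold higher in these sorts (edgeR adjusted p = 0.0162 and 0.00386). Without Sertoli pool A, adjusted p was 0.124 for Lss and 0.135 for Cyp51 between Interstitial and Sertoli, and 0.053 for Cyp51 and 0.114 for Sc5d between Leydig and Sertoli. Lss was lost also without Sertoli pool B (adjusted p = 0.056), and Lss and Cyp51 without Interstitial pool B (0.0678 and 0.0638).

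Nsdhl, Ebp and Dhcr7 of the same branch went the other way. Nsdhl, a dehydrogenase that takes part in removing methyl groups from the sterol ring, read 36.5, 33.2 and 35.8 CPM in the Sertoli, 23.8, 22.5 and 21.7 in the Leydig and 16.4, 16.7 and 16.7 in the Interstitial sort. The 3 sorts did not overlap. It was 2.19-fold higher in the Sertoli than in the Interstitial sort (edgeR adjusted p = 7.64e-06), 1.55-fold higher in Sertoli than in Leydig and 1.41-fold higher in Leydig than in Interstitial.

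Ebp, the sterol isomerase, read 16.6, 16.0 and 16.6 CPM in the Sertoli, 11.2, 10.9 and 9.90 in the Leydig and 7.72, 6.20 and 7.16 in the Interstitial sort. These did not overlap either. It was 2.43-fold higher in the Sertoli than in the Interstitial sort (edgeR adjusted p = 3.44e-05), and 1.52-fold higher in Sertoli than in Leydig and 1.59-fold higher in Leydig than in Interstitial. Nsdhl (chrX:72918557-72958514) and Ebp (chrX:8185329-8193512) are the 2 members on the X chromosome.

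Dhcr7, the reductase of a final step, read 26.7, 28.3 and 25.7 CPM in the Sertoli, 19.8, 17.2 and 20.7 in the Leydig and 19.4, 20.4 and 18.3 in the Interstitial sort. The Sertoli libraries stood above the other 6, which overlapped. It was 1.53-fold higher in Sertoli than in Leydig and 1.43-fold higher in Sertoli than in Interstitial (edgeR adjusted p = 0.00118 and 0.00145). The remaining genes of the branch were called in no comparison: the reductase Tm7sf2 (7.20 to 9.34 CPM over all libraries), the methylsterol oxidase Msmo1 (41.8 to 53.7) and the ketosteroid reductase Hsd17b7 (17.4 to 21.4). For Msmo1 the interval of the Interstitial minus Sertoli log2 difference was -0.34 to 0.29. Tm7sf2 shares 532 exon bases with Vps51 on the same strand, so that reads from those bases cannot be assigned to one of them. Smaller stretches on the opposite strand are shared by Cyp51 with Akap9 (166 bases) and by Srebf1 with Rai1 (109 bases).

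**Figure D4:**
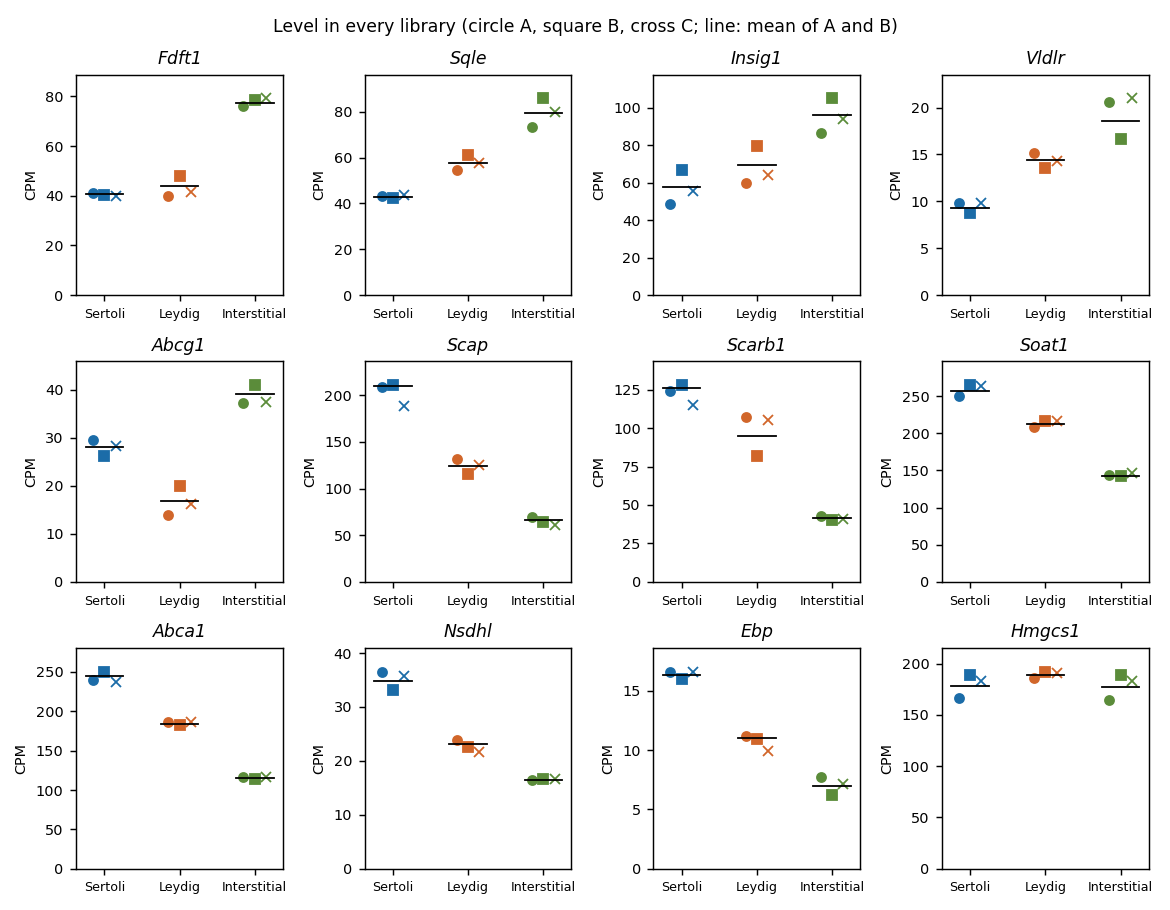
Level in CPM (vertical axes, from 0) of 12 members in every library, with A as circles, B as squares, C as crosses and a line at the mean of A and B. Fdft1, Sqle, Insig1 and Vldlr were highest in the Interstitial sort, Scap, Scarb1, Soat1, Abca1, Nsdhl and Ebp in the Sertoli sort, Abcg1 was lowest in the Leydig sort and Hmgcs1 overlapped in all 3.

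The SREBP control genes were all called between the Interstitial and Sertoli sorts, 2 higher in the Interstitial and 3 in the Sertoli sort. Scap, the escort of the SREBP precursors (chr9:110333288-110384950, plus strand), gave the largest difference of any member. It read 209, 211 and 188 CPM in libraries A, B and C of the Sertoli sort, 132, 116 and 125 in the Leydig sort and 69.2, 64.0 and 61.0 in the Interstitial sort. No 2 sorts overlapped. It was 3.27-fold higher in the Sertoli than in the Interstitial sort (log2 difference, Interstitial minus Sertoli, -1.71 ± 0.08, SE; edgeR adjusted p = 3.11e-07), 1.75-fold higher in Sertoli than in Leydig (edgeR adjusted p = 5.8e-05) and 1.88-fold higher in Leydig than in Interstitial (edgeR adjusted p = 5.27e-05). A transcript annotated on its opposite strand, 5830462I19Rik, shares 985 exon bases with it and averaged 0.528 to 0.705 CPM.

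The factor genes themselves moved apart. Srebf2, whose product chiefly drives cholesterol genes, read 51.7, 64.7 and 55.7 CPM in the Sertoli, 72.8, 73.3 and 73.0 in the Leydig and 83.3, 87.6 and 74.0 in the Interstitial sort. All Sertoli libraries lay below the others. It was 1.41-fold higher in the Interstitial than in the Sertoli sort (edgeR adjusted p = 0.00205) and 1.22-fold higher in Leydig than in Sertoli (edgeR adjusted p = 0.0482). The latter call was lost with RLE size factors, without either Leydig pool and without Sertoli pool A (adjusted p = 0.0525 to 0.257).

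Srebf1, whose products drive fatty acid genes more, read 70.6, 69.1 and 64.9 CPM in the Sertoli, 58.6, 55.0 and 56.0 in the Leydig and 56.3, 62.4 and 52.1 in the Interstitial sort. The Sertoli libraries were highest and the other 6 overlapped. It was 1.27-fold higher in Sertoli than in Leydig (edgeR adjusted p = 0.00641) and 1.22-fold higher than in Interstitial (edgeR adjusted p = 0.00759). These calls were lost without Leydig pool B (adjusted p = 0.0641), and without Interstitial pool A or with library size alone (0.146 and 0.154).

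The INSIG genes also parted. Insig2, which retains SCAP in the endoplasmic reticulum, read 18.9, 16.8 and 18.5 CPM in the Sertoli, 13.0, 11.6 and 12.5 in the Leydig and 8.83, 9.08 and 9.25 in the Interstitial sort. The sorts did not overlap, and it was 2.07-fold higher in Sertoli than in Interstitial (edgeR adjusted p = 5.46e-05), 1.5-fold higher in Sertoli than in Leydig and 1.38-fold higher in Leydig than in Interstitial. The last of these had an adjusted p of 0.0623 without Interstitial pool A and 0.0516 without pool B. Insig1, an SREBP target with the same role, was 1.60-fold higher in the Interstitial than in the Sertoli sort (edgeR adjusted p = 0.00796), at 86.6 to 105 against 48.7 to 66.6 CPM. Without Sertoli pool A its log2 difference was 0.47 and adjusted p 0.0725. The Leydig libraries, at 59.6 to 79.3 CPM, overlapped the Sertoli ones. Insig1 was not called between Interstitial and Leydig (edgeR adjusted p = 0.0598), but was higher in Interstitial in 7 of the 16 alternatives. Per kilobase of the longest coding transcript, Insig1 was above Insig2 in every sort, at 21.4 against 6.62 CPM in Sertoli and 35.5 against 3.32 in Interstitial.

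Among the genes of uptake and lysosomal release, Scarb1 differed most (chr5:125277087-125341094, minus strand). It encodes the HDL receptor SR-BI, which takes up cholesteryl esters and serves steroid-making tissues. It read 124, 128 and 115 CPM in libraries A, B and C of the Sertoli sort, 107, 81.8 and 105 in the Leydig sort and 42.9, 40.0 and 40.6 in the Interstitial sort. The Sertoli libraries were above the Leydig libraries, and both far above the Interstitial ones. It was 3.17-fold higher in Sertoli than in Interstitial (log2 difference, Interstitial minus Sertoli, -1.66 ± 0.12, SE; edgeR adjusted p = 4.47e-06) and 2.31-fold higher in Leydig than in Interstitial (edgeR adjusted p = 0.000102). Between Leydig and Sertoli it was 1.37-fold higher in Sertoli (edgeR adjusted p = 0.0121), but adjusted p was 0.0616 without Leydig pool B, 0.0598 without Sertoli pool A and 0.077 without Sertoli pool B. In the Leydig sort, pool A was above pool B both in Scarb1 and in the summed steroidogenic markers (626 and 383 CPM). The same held in the Interstitial sort, where these markers summed to 128 and 115 CPM. In the Sertoli sort the markers were higher in pool A (582 and 529 CPM), but Scarb1 was lower in it (124 and 128 CPM). The part of steroidogenic cells in the Scarb1 level was not tested.

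Vldlr, the receptor for very low density lipoprotein, had the opposite order, at 8.80 to 9.80 CPM in the Sertoli, 13.5 to 15.2 in the Leydig and 16.6 to 21.0 in the Interstitial sort. It was 1.93-fold higher in Interstitial than in Sertoli (edgeR adjusted p = 0.000286) and 1.5-fold higher in Leydig than in Sertoli (edgeR adjusted p = 0.00839). The latter had an adjusted p of 0.0682 without Sertoli pool B, and its 1.29-fold difference between Interstitial and Leydig (edgeR adjusted p = 0.0476) was lost in 7 of the 16 alternatives, with an adjusted p of up to 0.311, without Interstitial pool A. Npc2, which carries cholesterol inside the lysosome, was 1.79-fold higher in Sertoli (152 to 167 CPM) than in Interstitial (87.9 to 92.0; edgeR adjusted p = 5.06e-06), and its Leydig level lay between and was called against both. Lipa, the lysosomal acid lipase, was 1.55-fold higher in Sertoli than in Interstitial (edgeR adjusted p = 0.000476). Its Leydig level was called against both other sorts, but the call against Sertoli was lost in 8 of the 16 alternatives (adjusted p up to 0.283, without Leydig pool B) and that against Interstitial in 3 (up to 0.17, without Interstitial pool B).

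Npc1, the membrane partner of Npc2, did not follow it. It was 1.23-fold higher in Interstitial than in Leydig (edgeR adjusted p = 0.00904), a call lost without Interstitial pool B or Leydig pool A (adjusted p = 0.0601 and 0.0504). Against Sertoli it was not called in the Interstitial sort (log2 difference 0.16, interval 0.00 to 0.32, edgeR adjusted p = 0.0765), but 8 of the 16 alternatives called it higher in Interstitial (adjusted p = 0.00346 to 0.041). Npc1 shares 511 exon bases with Rmc1 on the opposite strand, which read 25.1, 24.2 and 50.9 CPM in the Sertoli, Leydig and Interstitial sorts.

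Soat1 (chr1:156424525-156474331, minus strand) encodes the enzyme of the endoplasmic reticulum that esterifies cholesterol for storage. Its libraries A, B and C read 250, 265 and 264 CPM in the Sertoli sort. They read 208, 216 and 216 in the Leydig sort and 144, 142 and 147 in the Interstitial sort. The sorts did not overlap. Soat1 was 1.87-fold higher in Sertoli than in Interstitial (edgeR adjusted p = 3.03e-06), 1.25-fold higher in Sertoli than in Leydig (edgeR adjusted p = 0.00264) and 1.5-fold higher in Leydig than in Interstitial (edgeR adjusted p = 0.000139). Lipe, hormone-sensitive lipase, which frees stored esters, was called in no comparison, at 6.43 to 9.22 CPM over all libraries.

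The efflux transporters did not share a pattern. Abca1, which exports cholesterol to lipid-poor apolipoproteins, read 240, 250 and 237 CPM in the Sertoli, 186, 182 and 186 in the Leydig and 116, 114 and 117 in the Interstitial sort. The sorts did not overlap. It was 2.21-fold higher in Sertoli than in Interstitial (edgeR adjusted p = 5.27e-07), 1.37-fold higher in Sertoli than in Leydig and 1.61-fold higher in Leydig than in Interstitial (edgeR adjusted p = 0.000268 and 4.34e-05).

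Abcg1, which exports cholesterol to mature HDL, was lowest in the Leydig sort. Its libraries A, B and C read 29.6, 26.3 and 28.3 CPM in the Sertoli, 13.9, 20.0 and 16.2 in the Leydig and 37.3, 41.0 and 37.5 in the Interstitial sort. No sorts overlapped, although Leydig pools A and B stood further apart than those of any other member in that sort. Abcg1 was 2.28-fold higher in Interstitial than in Leydig (log2 difference, Leydig minus Interstitial, -1.19 ± 0.15, SE; edgeR adjusted p = 0.000453) and 1.70-fold higher in Sertoli than in Leydig (edgeR adjusted p = 0.00471). Its log2 difference between Leydig and Sertoli ran from -1.01 without Leydig pool B to -0.52 without Leydig pool A, called in both. Its 1.35-fold difference between Interstitial and Sertoli (edgeR adjusted p = 0.0337) was lost without either Sertoli pool (adjusted p = 0.0704 and 0.193) or Interstitial pool B (0.0936).

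The START-domain proteins carry sterols between membranes and went in opposite directions. Stard4, a soluble carrier and SREBP target, read 16.9, 20.3 and 19.0 CPM in the Sertoli, 27.0, 30.7 and 29.6 in the Leydig and 29.2, 33.5 and 31.9 in the Interstitial sort. The Sertoli libraries were lowest and the other sorts overlapped. It was 1.51-fold higher in Leydig and 1.62-fold higher in Interstitial than in Sertoli (edgeR adjusted p = 0.00454 and 0.000936). Stard3, of the late endosome, was 1.56-fold higher in Sertoli (34.1 to 35.0 CPM) than in Interstitial (21.9 to 23.1; edgeR adjusted p = 0.000153). Its Leydig level was called between them, but not without Leydig pool B against Sertoli (adjusted p = 0.0688), and in 5 of the 16 alternatives not against Interstitial (adjusted p up to 0.131, without Leydig pool A).

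Levels can be compared between genes only per kilobase. In the Sertoli sort the members with the most reads per kilobase of the longest coding transcript were Hmgcs1 (51.3 CPM per kb), Scarb1 (50.1), Scap (49.7), Npc2 (46.8) and Fdps (45.3). In the Leydig sort Hmgcs1 (54.6) and Fdps (45.7) led, followed by Scarb1 (37.5) and Npc2 (35.5). In the Interstitial sort Fdps (66.3) and Hmgcs1 (51.1) led and Insig1 followed (35.5), with Scarb1 at 16.4 and Scap at 15.8. Vldlr was lowest in the Sertoli and Leydig sorts, at 1.16 and 1.80 CPM per kb, and in the Interstitial sort it (2.34) and Lipe (2.36) were lowest.

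Beside the 34 members, 57 genes of linked pathways were found in the table and 55 were tested. Of the 11 fatty acid synthesis genes, which SREBP factors also drive, 9 were higher in the Sertoli than in the Interstitial sort and 1, Scd1, was lower. Over all genes tested these shares were 29.1% and 32.7%. Against Leydig, 8 of the 11 were higher in the Sertoli sort and 2, Scd1 and Elovl6, were lower, with 20.6% and 16.9% over all genes tested. Elovl6, a fatty acid elongase named here after its values were seen, averaged 79.9, 116 and 81.4 CPM in the Sertoli, Leydig and Interstitial sorts (Leydig minus Sertoli 0.50 in log2, edgeR adjusted p = 0.000646). Me1, malic enzyme, which supplies reducing power for lipid synthesis, averaged 358 ± 19.4, 148 ± 10.4 and 28.4 ± 1.13 CPM (SD, n = 2) in the Sertoli, Leydig and Interstitial sorts, and its log2 difference between Interstitial and Sertoli was -3.72 (edgeR adjusted p = 8.33e-09). Acss2, which makes acetyl-CoA from acetate, averaged 47.3, 19.3 and 7.97 CPM (-2.62, edgeR adjusted p = 6.07e-08). The desaturase Scd1 averaged 1.96, 3.42 and 7.49 CPM (1.87, edgeR adjusted p = 3.82e-05). The median Interstitial minus Sertoli log2 difference was -0.64 over the 11 fatty acid genes and 0.02 over the 18 cholesterol synthesis genes, against 0.04 for all genes tested. The difference between the lists was not tested.

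Of the 8 genes of SREBP processing and sterol sensing that were tested, 7 were higher in the Sertoli than in the Interstitial sort and 1 was lower, the side on which Scap and Insig2 also fell. Of the 11 genes of the isoprenoid and dolichol branches, which draw on the mevalonate route, 1 was higher in Interstitial, 4 in Sertoli and 6 were not called. Among 25 other sterol-handling genes 5 were higher in Interstitial, 10 in Sertoli and 10 were not called. Over all genes tested, 32.7% were higher in Interstitial and 29.1% in Sertoli. The share of isoprenoid and dolichol genes higher in Sertoli, 36.4%, was near that background, and that of the other sterol-handling genes was 40.0%. Lrp2, the endocytic receptor megalin, was highest in Interstitial, at 58.3 ± 13.0 CPM against 2.24 ± 0.233 in Sertoli and 12.9 ± 0.400 in Leydig (SD, n = 2; Interstitial minus Sertoli 4.64 in log2, edgeR adjusted p = 1.31e-07). The mesonephric and coelomic markers ranked the sorts as Lrp2 did, summing to 267 to 273, 20.3 to 23.7 and 96.1 to 106 CPM in Interstitial, Sertoli and Leydig. Other marker lists ranked them so too, among them the macrophage and leukocyte markers (51.1 to 78.0, 4.88 to 6.48 and 17.4 to 27.9 CPM). The part of any of these cells in the Lrp2 level was not tested. Gramd1b, which moves sterol from the plasma membrane to the endoplasmic reticulum, averaged 134, 91.9 and 31.7 CPM in the Sertoli, Leydig and Interstitial sorts. It was 1.55 higher in log2 in Leydig than in Interstitial (edgeR adjusted p = 4.91e-06). Its Leydig minus Sertoli log2 difference was -0.58 (edgeR adjusted p = 0.000566). Stard5, another START carrier, was 1.11 higher in log2 in Leydig than in Sertoli (edgeR adjusted p = 2.18e-05).

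Pools A and B differed in these genes by a median of 0.09, 0.15 and 0.13 in absolute log2 in the Sertoli, Leydig and Interstitial sorts, against 0.13, 0.14 and 0.12 for all genes tested. The widest gaps were Insig1 in Sertoli (A over B, -0.45), Abcg1 in Leydig (-0.53) and Msmo1 in Interstitial (-0.36). In all 3 sorts pool B was above pool A for 10 of the 34 members, against 19.4% of all genes tested: Hmgcs1, Idi1, Cyp51, Msmo1, Hsd17b7, Sc5d, Srebf2, Insig1, Npc1 and Stard4. Pool A was above pool B in all 3 sorts for Acat2, Ebp and Vldlr, against 18.3% of all genes. Library C lay between A and B for 16, 23 and 16 of the 34 members in the Sertoli, Leydig and Interstitial sorts.

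The authors' deposited tables list only genes with adjusted p under 0.05 and at least a 2-fold difference. The authors' deposited table of Interstitial against Sertoli holds 6 members, with log2 fold changes of -1.62 for Scap, -1.55 for Scarb1, -1.20 for Ebp, -1.06 for Nsdhl, -1.04 for Abca1 and 1.06 for Vldlr. The authors' deposited table of Leydig against Interstitial holds Scarb1 at 1.22 and Abcg1 at -1.24. The authors' deposited table of Leydig against Sertoli holds 0 of the 34 members, where edgeR without a fold limit called 20.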

How the data were processed

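Read counts per gene and lane were deposited by the authors; reads were aligned to mm10 with TopHat2 2.0.6 and counted with HTSeq, per the submitters' processing notes, from strand-marked, ribosome-depleted total RNA libraries, per the labels' protocols. Which annotation release and strand option HTSeq was run with is not given in the sources used here. The authors' deposited comparison tables (limma, per the submitters' processing notes) hold log2 fold changes and mean log2 expression, p-values and scores (moderated t and log odds), per the file headers.

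Counts of the 4 lanes were summed. Reads outside genes (32.23 to 38.52% without a feature, 0.62 to 0.77% ambiguous) were left out, and 15.5 to 20.25% of reads in genes were mitochondrial. Pools A and B of all 3 sorts were fitted together with edgeR 4.0.16 in R 4.3.3 (filterByExpr, TMM, glmQLFit and glmQLFTest, Benjamini-Hochberg over 18048 genes, calls at 0.05). SEs come from the F statistic, and 95% intervals use its degrees of freedom. The common biological coefficient of variation was 0.0871. The code was tested on simulated data. CPM use TMM factors over the 9 libraries. Positions and lengths are GENCODE M21 (GRCm38), and promoters RefSeq (GRCm38.p6).

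The p-values measure the spread between pooled samples. The members and lists were chosen with earlier results of these data known. Values in every library are given for Srebf1, Srebf2, Hmgcs1, Fdft1, Scarb1, Soat1 and the 6 called members with the largest difference per comparison and at least 5 CPM, and of other pathway genes at most 2 per direction and comparison are named. Alternatives were RLE size factors, library size alone, DESeq2 1.42.0, limma 3.58.1 with voom, no filter, a filter at 1 CPM, all 9 libraries, a replicate block, the first 2 lanes, no mitochondrial genes, and leaving out each pool.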

Additional observations from a re-analysis of the deposited data

How the results depend on the processing

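Of the called members, 10 of 20 (Leydig against Sertoli), 11 of 18 (Leydig against Interstitial) and 19 of 25 (Interstitial against Sertoli) kept their call under all 16 alternatives, and 0 reversed. Leaving out 1 pool at a time, which leaves 1 sort with a single pool assumed to vary like the others, gave 3 to 7 members higher in Leydig than in Sertoli, 7 to 12 higher in Leydig than in Interstitial and 8 to 14 higher in Interstitial than in Sertoli. The medians ran from -0.10 to 0.01 (Leydig minus Sertoli), -0.14 to -0.01 (Leydig minus Interstitial) and -0.01 to 0.14 (Interstitial minus Sertoli). With library size alone the medians were 0.07 (Leydig minus Sertoli) and 0.16 (Interstitial minus Sertoli), and with the first 2 lanes the latter was 0.10. Members higher in Interstitial than in Leydig numbered 10, against 6, with library size alone, with no filter on low counts, with all 9 libraries and with the replicate block; the cause was not tested. The differences of pools A minus B correlated across genes between sorts at 0.25 (Interstitial and Leydig), 0.10 (Interstitial and Sertoli) and 0.02 (Leydig and Sertoli), so the letters were not taken as pairs. Under the replicate block no call was lost, and 2, 4 and 2 members were gained in the 3 comparisons. The 4 gained between Leydig and Interstitial were Idi1, Insig1, Lss and Srebf2, all higher in Interstitial (edgeR adjusted p = 0.000785, 0.000213, 0.0294 and 0.0386). Of these, Idi1, Insig1 and Srebf2 had pool B above pool A in all 3 sorts, a shift that the main fit counts as spread.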
